A study of Mus musculus with 8 samples.

Results

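Promoter to promoter loops are Hi-ChIP contacts that join the start of a protein-coding gene to the start of another one, or to a second start of the same gene. A loop was taken when both of its anchors lay within 2 kb of the 5′ end of a protein-coding transcript in the GENCODE M21 annotation of the mouse and when the anchor midpoints were 20 kb to 1 Mb apart. The 4 loop lists of the study held 249200 distinct loops, and 35480 of them met this rule. A further 84980 loops of the same span had 1 promoter anchor, and 81583 had none.

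Hi-ChIP joins fragments of chromatin that lie close together in the nucleus and then enriches the joined fragments with an antibody, so that contacts are seen where a chosen protein is bound. The antibodies were against FOXA1, a forkhead factor that opens chromatin, and HNF4G, a nuclear receptor of gut and pancreatic epithelium, and the study asked how looping tied to each differed between a primary and a metastatic context. There were 8 samples in 4 groups of 2 replicates, with both antibodies used in tumor and in liver mets cells. Each group had 1 loop list that covered its replicates.

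Cells of all groups were mouse pancreatic cancer cells derived from the KPC model, a genetically engineered mouse model of pancreatic cancer. They were labelled WT in genotype and untreated, although a general treatment note for the series also mentions CRISPR, and were grown in DMEM with 10% FBS. The tumor samples came from a cell line of a primary tumor and the liver mets samples from a matched cell line of a liver metastasis, so each context was 1 line and a difference between lines cannot be told apart from a difference between contexts. The loop lists hold no expression, so the labelled cell type could not be checked against marker genes. With 1 list per group there was no spread between replicates and no test between groups, and all intervals below are 95% intervals that cover counting error only. They take no account of anchors shared between loops. How deeply each library was sequenced is unknown, and read pairs behind a loop were not analysed here. Where 4 values stand in a row, the FOXA1 lists come first and the HNF4G lists second, each with liver mets before tumor, an order called the list order.

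Promoters can touch each other because genes of 1 neighbourhood gather at shared sites of transcription, because they share a distal enhancer, or because Polycomb complexes bring silent genes together. Genes of a family that arose by duplication often sit side by side and can share such contacts. Contact frequency falls steeply with distance along the chromosome, so counts of loops are given here within ranges of span.

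The value given for each loop below is the number deposited with it, read as −log10 of an adjusted p, with a top of 20. It ranks loops within a list, and a value may rest on unlike evidence from list to list. The loop with the highest minimum value across the 4 lists joined the start of 1600014C23Rik to that of Vegfa, the main angiogenic growth factor. The leading loop between related genes joined Krt8 to Krt18, the keratins that pair into the filaments of simple epithelia. All 4 genes had an entry in the RefSeq promoter table of the GRCm38 assembly, and the 250 bases before each start are shown so that the paired promoters can be compared. These bases lie upstream of the transcript. Capitals mark a GC box (GGGCGG) on either strand, and the sequences run 5′ to 3′ along the gene's strand.
1600014C23Rik (chr17:45733845-45734094, minus strand): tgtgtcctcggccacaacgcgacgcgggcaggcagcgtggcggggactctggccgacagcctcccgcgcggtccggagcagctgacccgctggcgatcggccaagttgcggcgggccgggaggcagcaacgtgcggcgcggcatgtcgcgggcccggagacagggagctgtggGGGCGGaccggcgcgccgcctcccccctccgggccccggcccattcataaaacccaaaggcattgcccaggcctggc
Vegfa (chr17:46032378-46032627, minus strand): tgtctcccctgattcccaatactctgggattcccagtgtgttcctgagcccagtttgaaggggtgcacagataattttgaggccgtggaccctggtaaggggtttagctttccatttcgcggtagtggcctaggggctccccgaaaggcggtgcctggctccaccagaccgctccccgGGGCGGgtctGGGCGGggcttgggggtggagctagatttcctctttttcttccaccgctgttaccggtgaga
Krt8 (chr15:102004343-102004592, minus strand): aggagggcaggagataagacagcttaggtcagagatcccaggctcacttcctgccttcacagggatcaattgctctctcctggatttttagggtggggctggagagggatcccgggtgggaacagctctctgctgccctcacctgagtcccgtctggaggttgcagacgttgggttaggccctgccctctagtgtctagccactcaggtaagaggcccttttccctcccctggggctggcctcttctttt
Krt18 (chr15:102027966-102028215, plus strand): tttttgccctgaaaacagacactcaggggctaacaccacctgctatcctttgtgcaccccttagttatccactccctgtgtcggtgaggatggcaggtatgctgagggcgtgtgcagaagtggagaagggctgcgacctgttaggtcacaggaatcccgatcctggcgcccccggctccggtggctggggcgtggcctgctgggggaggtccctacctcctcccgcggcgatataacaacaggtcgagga

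The first pair carried a GC box each, with 1 match at 1600014C23Rik and 2 at Vegfa, and the Krt8 and Krt18 promoters held none of the 6 motifs searched. The other motifs searched were a TATA box (TATAAA), a forkhead motif (TGTTTAC), an HNF4 motif (CAAAGTC), an AP-1 motif (TGACTCA) and an ETS motif (CCGGAAG), each on both strands. A match is a description of the letters and not a bound site.

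Of the 30542 anchors of the 4 lists, 10459 (34.2%) were promoter anchors, and 9843 of these took part in 1 or more promoter to promoter loops. They brought 9853 of 21938 protein-coding genes into the loops, from 7610 in HNF4G liver mets to 8380 in FOXA1 liver mets, and 5554 genes were present in every list. A promoter anchor had a median of 2 such loops in each FOXA1 list and of 1 in each HNF4G list. The 1309 anchors with 2 or more genes had more loops than the 9150 with 1 gene. The mean was 4.23 against 3.01 in FOXA1 liver mets and 3.22 against 2.32 in HNF4G tumor. Their median widths were 2596 and 2502 bp. These counts were not matched for the number of promoter anchors within reach, and the cause of the difference was not tested.

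The FOXA1 liver mets list held 16519 promoter to promoter loops and the FOXA1 tumor list 14651, while HNF4G had 11571 in liver mets and 12726 in tumor. Of all loops of this span they made up, in list order, 16.4% (Wilson interval 16.2 to 16.6), 17.5% (17.3 to 17.8), 18.8% (18.5 to 19.1) and 21.1% (20.7 to 21.4). The HNF4G lists were thus shorter but richer in contacts between promoters. The median span was 172.6 kb, 156.7 kb, 139.8 kb and 157.7 kb in the same order.

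To ask whether a pair of promoters was listed more often than another pair at the same distance, all pairs of the 30542 anchors were counted. These anchors were pooled over the 4 lists, so a pair could hold an anchor that a given list did not use. The FOXA1 lists held more loops with no promoter than the HNF4G lists, and what pooling did to the shares was not tested. Between 20 and 50 kb, HNF4G tumor listed 45.8% of 4688 promoter pairs, 39.2% of 11942 pairs with 1 promoter and 30.7% of 14960 pairs with none. Between 500 and 1000 kb the shares were 4.14% of 47232, 2.85% of 135170 and 2.11% of 126433. In FOXA1 liver mets the 3 kinds of pair lay much closer, at 53.5%, 53.0% and 51.0% in the shortest range and 5.85%, 5.26% and 5.11% in the longest.

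**Figure D1:**
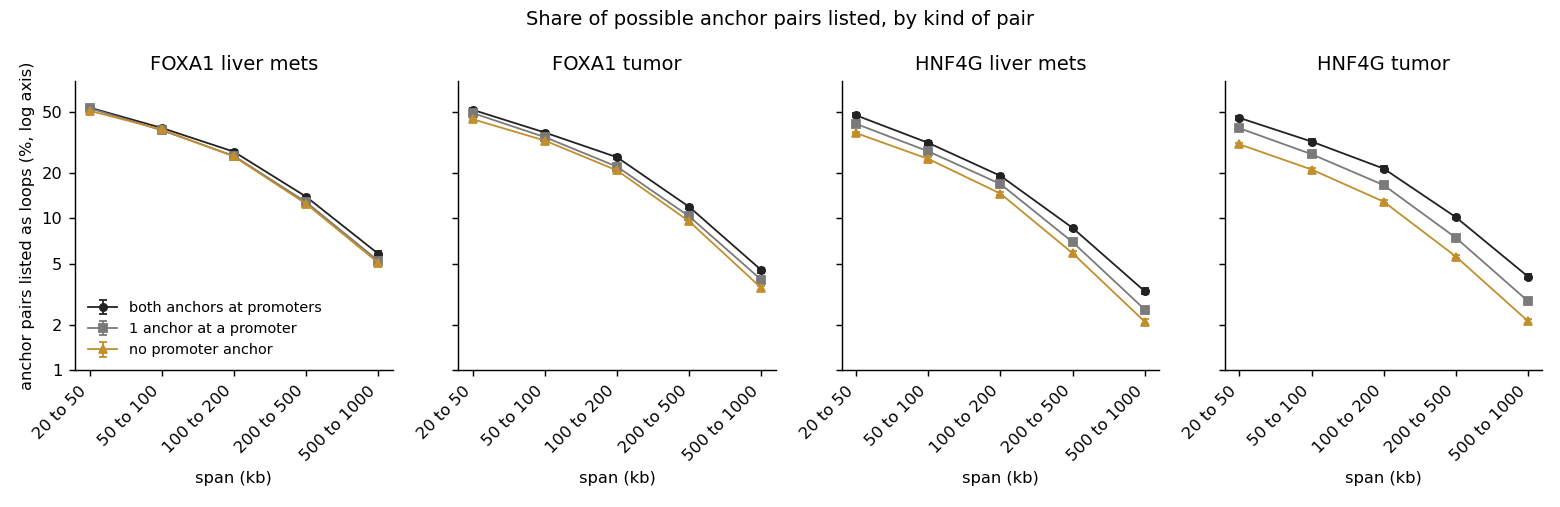
Percent of all possible anchor pairs that were listed as loops (log axis) by span in kb, in 1 panel per list. Points are shares, bars are Wilson 95% intervals, and the colours separate pairs with promoters at both anchors, at 1 anchor and at none. The gap between the curves is widest in HNF4G tumor, at 45.8% against 30.7% in the shortest range, and narrowest in FOXA1 liver mets, at 53.5% against 51.0%.

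Within span ranges, the odds that a promoter pair was listed against those of a pair without a promoter were highest in HNF4G tumor, at 1.88 (Mantel-Haenszel interval 1.83 to 1.93), followed by HNF4G liver mets at 1.48 (1.45 to 1.52). They were 1.28 (1.25 to 1.31) for FOXA1 in tumor and 1.11 (1.09 to 1.14) for FOXA1 in liver mets. Promoter anchors were wider (median 2516 against 2249 bp) and richer in GC (52.4% against 46.2%) than other anchors. Within strata of span and summed anchor width the odds ratios were 1.60, 1.26, 1.08 and 0.908 in the same order, so that the last value crossed 1. Within strata of span and GC content they were 1.38, 1.26, 1.24 and 1.14, and within strata of span and DpnII sites they were 1.78, 1.41, 1.22 and 1.06. These strata were chosen after the data had been seen. They do not adjust for the pooling of anchors over the lists.

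The liver mets and tumor lines were compared next. For FOXA1 the number of promoter to promoter loops was 1.13 times higher in liver mets (exact interval 1.10 to 1.15). The ratio was larger for loops with 1 promoter anchor, at 1.19 (1.17 to 1.21), and for loops with none, at 1.25 (1.24 to 1.27). For HNF4G, promoter to promoter loops were fewer in liver mets than in tumor, at a ratio of 0.909 (0.887 to 0.932), while loops with no promoter were more numerous, at 1.12 (1.10 to 1.14), and those with 1 promoter differed by less than counting error (0.990, 0.973 to 1.01).

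These ratios followed the span. The FOXA1 ratio was 1.04 (0.978 to 1.09) between 20 and 50 kb, where 2509 loops in liver mets stood against 2424 in tumor. It reached 1.17 (1.12 to 1.22) at 200 to 500 kb and 1.28 (1.21 to 1.36) at 500 to 1000 kb, where the counts were 2765 and 2153. The HNF4G ratio began at the same level, 1.04 (0.979 to 1.10), and went the other way, to 0.850 (0.809 to 0.894) at 200 to 500 kb and 0.801 (0.749 to 0.857) in the longest range, where the counts were 1566 and 1955. Loops with no promoter anchor also shifted with span. At 20 to 50 kb FOXA1 had 7635 of them in liver mets and 6711 in tumor, and HNF4G 5442 and 4592. At 500 to 1000 kb the counts were 6455 and 4396 for FOXA1 and 2645 and 2665 for HNF4G. The shift with span was thus not particular to promoter pairs.

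**Figure D2:**
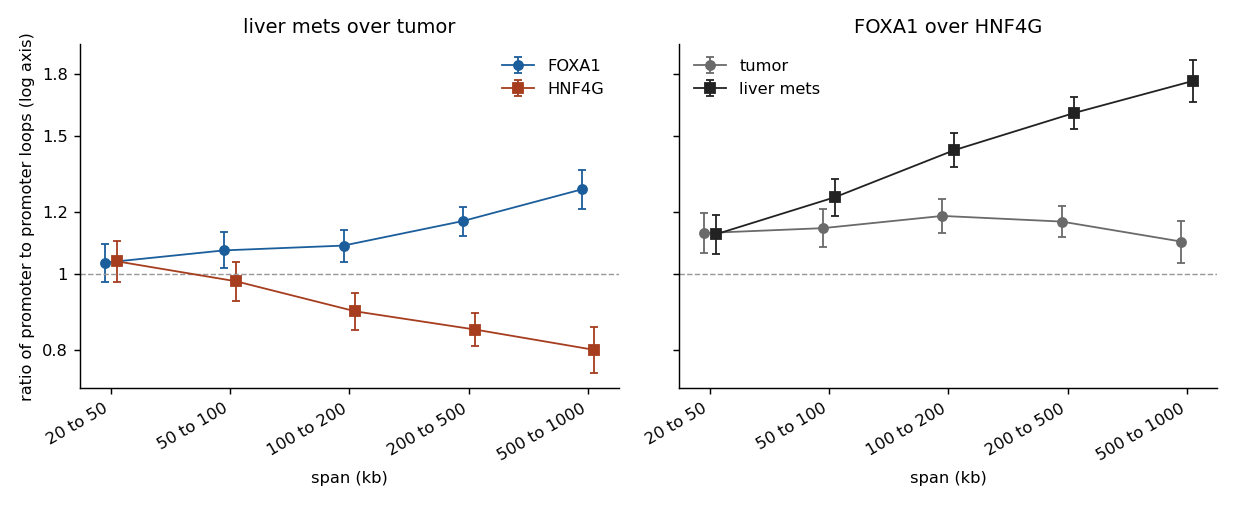
Ratio of the numbers of promoter to promoter loops (log axis) by span in kb, liver mets over tumor for each factor on the left and FOXA1 over HNF4G in each line on the right. Points are ratios and bars are exact 95% intervals for counting error. The FOXA1 curve rises from 1.04 to 1.28 and the HNF4G curve falls from 1.04 to 0.801, and the right panel rises to 1.77 in liver mets.

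As a share of the loops of equal span, contacts between promoters were less common in liver mets for both factors. The odds that a loop joined promoters at both ends, liver mets over tumor within span ranges, were 0.920 for FOXA1 (0.898 to 0.943) and 0.873 for HNF4G (0.849 to 0.898). With GC content added to the strata they were 0.947 (0.922 to 0.972) and 0.963 (0.934 to 0.993). When both FOXA1 lists were cut by value to equal length, the count ratio turned to 0.948 (0.926 to 0.970), and the HNF4G ratio under the same rule stayed below 1. In lists of equal length a count ratio compares shares, so it is no separate check on the shares above.

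Between the factors, FOXA1 had 1.15 times as many promoter to promoter loops as HNF4G in tumor (1.12 to 1.18) and 1.43 times as many in liver mets (1.39 to 1.46). In tumor the ratio lay between 1.10 and 1.19 in all 5 span ranges. In liver mets it was 1.12 (1.06 to 1.19) in the shortest range of span and 1.77 (1.66 to 1.88) in the longest. The FOXA1 lists were longer, and within span ranges the odds that a loop joined promoters were lower for FOXA1, at 0.794 in tumor (0.774 to 0.816) and 0.838 in liver mets (0.817 to 0.861). With GC content in the strata these were 0.946 (0.919 to 0.974) and 0.928 (0.902 to 0.955). With equal numbers of highest-value loops the count ratios turned to 0.858 in tumor and 0.884 in liver mets. These ratios likewise compare shares of equally long lists.

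Of the FOXA1 tumor loops between promoters, 5673 of 14651 (38.7%, interval 37.9 to 39.5) were also listed in FOXA1 liver mets, against 39.3% of all FOXA1 tumor loops of this span. For HNF4G, 3955 of the 11571 liver mets loops (34.2%, 33.3 to 35.0) were also in tumor, against 30% of all loops, and the share was 26.5% for loops with no promoter. Across factors, 35.9% of HNF4G tumor loops between promoters were in FOXA1 tumor and 41.3% of HNF4G liver mets loops were in FOXA1 liver mets, near the 36.0% and 42.3% of all loops. As shares of the other list of each pair the picture differed. Of FOXA1 tumor loops, 31.1% (30.4 to 31.9) of those between promoters were in HNF4G tumor, against 27.1% with 1 promoter and 22.7% with none. Of FOXA1 liver mets loops, 28.9% (28.2 to 29.6) were in HNF4G liver mets, against 26.0% and 24.4%, and 34.3% (33.6 to 35.1) were in FOXA1 tumor, against 32.6% and 31.9%. Of HNF4G tumor loops, 31.1% (30.3 to 31.9) were in HNF4G liver mets, against 31.0% and 29.6%. How promoter pairs compared with other loops thus depended on which list was the denominator. A value of 2 or more was reached, in list order, by 9.82%, 9.18%, 9.16% and 10.4% of promoter to promoter loops, against 10.3%, 8.78%, 8.20% and 8.19% of all loops of this span.

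Most promoter pairs were seen in few lists. Of the 35480 distinct loops, 22256 were in 1 list, 8108 in 2, 3469 in 3 and 1647 (4.64%, 4.43 to 4.87) in all 4. The share in all 4 was 4.29% (4.16 to 4.43) for loops with 1 promoter anchor and 3.46% (3.34 to 3.59) for loops with none. Loops in all 4 lists were short, with a median span of 56.6 kb against 299.3 kb for loops in 1 list.

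**Figure D3:**
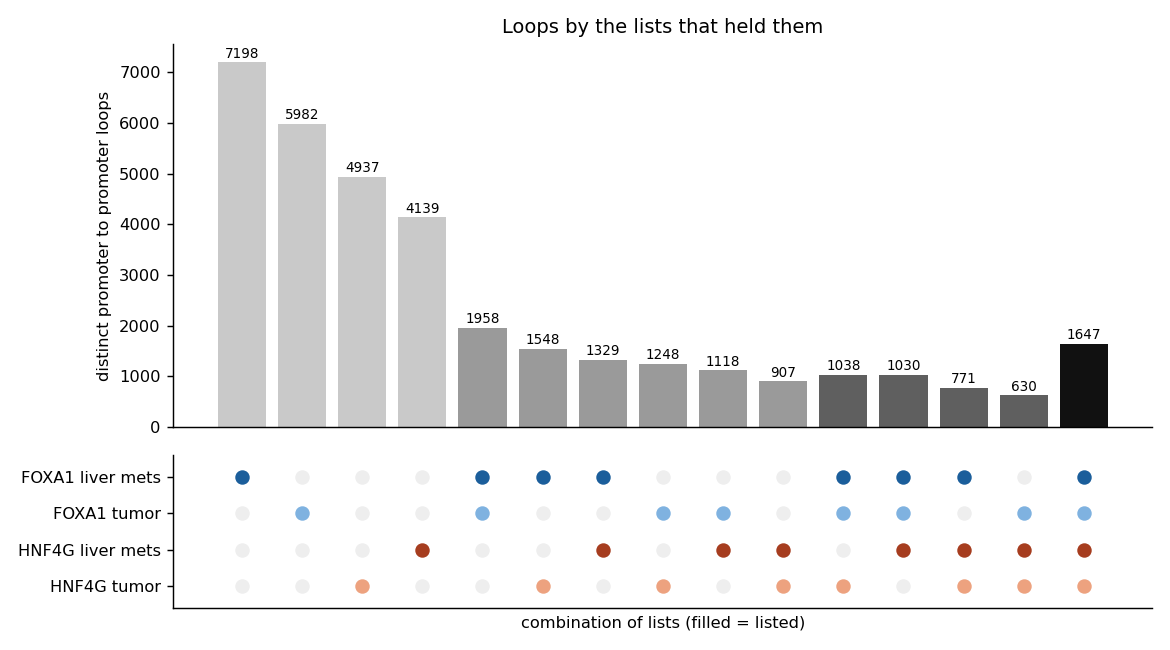
Number of distinct promoter to promoter loops for each combination of the 4 lists, with filled dots below naming the lists that held them. Grey levels give the number of lists. The tallest bar is FOXA1 liver mets alone with 7198 loops, and 1647 loops were in all 4 lists.

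Among the 6 loops in all 4 lists with the highest minimum value, 1600014C23Rik with Vegfa had values of 20, 10.3, 11.1 and 20 in list order over a span of 294.1 kb (chr17:45733998-45737878 and chr17:46026233-46033908). It was the longest loop of the 6, of which 4 are described here.

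Krt8 was joined to Krt18 over 23.5 kb (chr15:102002125-102008391 and chr15:102021806-102035809) with 20, 20, 8.45 and 10.1 in list order. It was at the top value in both FOXA1 lists. A further 2 loops of the 6 each joined alternative starts of 1 gene. That of Plec, which encodes the cytoskeletal linker plectin, had 20, 10.3, 7.93 and 8.31 over 31.5 kb, and the other was that of Smad3, a transducer of TGF-β signals.

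Loops between 2 starts of 1 gene numbered 549, and 100 of them (18.2%, 15.2 to 21.7) were in all 4 lists. They made up 6.07% (5.02 to 7.33) of the loops in all 4 lists, against 3.98% of possible promoter pairs at the same spans. The pairs were matched for span range and not for anchor width, and anchors of loops in all 4 lists were wider than promoter anchors in general. Smad3 had values of 20, 20, 7.58 and 11.6 in list order. Mecom, which encodes a zinc finger transcription factor from widely spaced starts, had 20, 20, 3.81 and 6.25 across 492.7 kb. Both had higher values in the FOXA1 lists, whose values may rest on unlike evidence from those of HNF4G.

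Rara, a retinoic acid receptor gene, had 7.05, 12, 20 and 10.1 over 27.5 kb, and Plxnd1, a semaphorin receptor gene, had 5.91, 1.69, 12.4 and 20 over 21.7 kb. Foxp1, a forkhead factor gene, had 7.94, 1.86, 6.12 and 1.94 over 425.9 kb. Its values were higher in the liver mets list of each factor. Those in tumor lay just below 2, and values may rest on unlike evidence from list to list. These genes, other than Plec and Smad3, were named after their values had been seen.

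The loops of a single list with the highest values named different genes for each group. In FOXA1 liver mets alone, Nfix was joined to Junb, a subunit of AP-1, over 210.0 kb with a value of 13.4, and Vasn to Ppl, which encodes periplakin, over 493.8 kb with 8.48. The start of Gm11568 was joined to Krt19, a keratin of ductal epithelium, with 9.78 over 289.7 kb. In FOXA1 tumor alone the values were 8.30 for Zfand5 with 1110059E24Rik and Abhd17b and 7.48 for Ltbp3, a binding protein of latent TGF-β, with the protease gene Capn1. Rnf181 with Capg, an actin capping protein gene, had 6.61.

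In HNF4G liver mets alone, Ypel3 was joined to the anchor of Kif22, Maz, Prrt2 and Gm42742 with 8.01, Mybl2, a cell cycle transcription factor gene, to Fitm2 with 6.15 over 417.6 kb, and Pak6, a kinase gene, to Bahd1 with 5.37. In HNF4G tumor alone, Luc7l3 was joined to Rsad1 with 10.3, the homeobox gene Tlx1 to the growth factor gene Fgf8 with 9.27 over 593.4 kb, and Cd248 to Eif1ad and Banf1 with 8.19. A loop missing from a list was not listed there, which does not show that the contact was absent.

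Of the loops listed for both factors in 1 line, 1329 were in both liver mets lists only and 1248 in both tumor lists only. The liver mets pair with the highest summed value joined Muc1, an epithelial mucin gene, and Mtx1 to Cks1b, a regulator of cyclin-dependent kinases, and Shc1, an adaptor of receptor tyrosine kinases, with 20 for FOXA1 and 3.11 for HNF4G over 191.7 kb (chr3:89225642-89235196 and chr3:89418880-89425363). Zfp574 was joined to Erf, a repressor of the ETS family, with 3.99 and 7.31, and Socs3, a suppressor of cytokine signals, to Cyth1 with 2.88 and 7.97. FOXA1 had the higher value in the Muc1 loop and HNF4G in the others, though values of different lists may rest on unlike evidence.

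On the tumor side, Zfp623 was joined to Plec over 260.9 kb with 5.12 for FOXA1 and 5.50 for HNF4G. The anchor of Cntnap1, Plekhh3 and Ccr10 was joined to Rnd2 and Vat1 with 1.74 and 8.01. The Plec loop had like values for the factors, and the other had the higher value in HNF4G, with the same limit.

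Loops listed for 1 factor in both lines numbered 1958 for FOXA1 and 907 for HNF4G. The leading FOXA1 loops joined Ramp1 to Ilkap (9.13 in liver mets and 7.18 in tumor), Rapgef1, an activator of RAP1, to Gm13420 (6.05 and 5.48) and Ccdc9b to Chst14 (2.35 and 8.41). The leading HNF4G loops joined Trim56 to Ache, the acetylcholinesterase gene (3.08 and 9.27), Sirt2 and Nfkbib to Actn4, an actin cross-linker gene (5.09 and 4.91), and Lasp1 to Cacnb1 (7.79 and 1.79). All 6 loops spanned 128.4 to 219.6 kb.

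Pairs of related genes were taken from gene symbols that share their letters before the last number. By this rule 394 of the 35480 loops (1.11%, 1.01 to 1.22) joined genes of a shared stem, from 109 stems, and the share over all possible promoter pairs at the same spans was 1.13%. Same-stem loops had a median span of 87.3 kb, against 213 kb for all promoter to promoter loops, and 35 of them (8.88%) were in all 4 lists. By alignment of the encoded proteins there were 390 loops (1.10%), also against 1.10% of possible pairs, and 281 loops met both definitions. Pooled over spans, related genes were thus joined about as often as other promoters, but this did not hold within each range. Between 50 and 100 kb, 63.9% (55.9 to 71.3) of possible same-stem pairs were listed in 1 or more lists. For other promoter pairs it was 72.0% (70.9 to 73.0), and the shortest and longest ranges are given below. Zinc finger genes (Zfp) gave 120 of the loops, keratins 29, histone genes of the Hist1h stem 19, and Tmem and Trim genes 11 each. None of the Tmem pairs aligned, since that stem names membrane proteins without regard to descent.

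Among the strongest loops of single stems, the S100a loop joined the anchor of S100a3 and S100a2 to that of S100a5 and S100a6, which encode small calcium-binding proteins, over 27.3 kb with 20, 20, 5.51 and 7.01 in list order. Ifi204 was joined to Ifi211, interferon-induced genes whose proteins were 93.3% identical, over 146.4 kb with 20, 5.94, 4.62 and 20. Reads from such near-identical genes may be hard to place, and this was not tested.

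Myo5a and Myo5c, which encode myosin motors with 50.3% identity, had 9.70, 2.73, 1.70 and 1.62 over 164.4 kb, the highest being in FOXA1 liver mets. Tm4sf1 and Tm4sf4, tetraspanin-like membrane proteins, had 10.2, 3.46 and 1.49 in the first 3 lists and were not listed in HNF4G tumor.

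The anchor of Lgals2 and Cdc42ep1 was joined to Lgals1, a galectin gene, over 79.3 kb with 3.41, 2.24, 1.94 and 1.67. Smad3 was joined to Smad6, an inhibitor of BMP signals, over 302.0 kb in FOXA1 liver mets (3.17) and HNF4G tumor (5.63) and was not listed elsewhere. A loop of Tmem203 and Tmem210, whose proteins did not align, had 9.46, 3.30, 3.61 and 5.31. The proteins of Krt8 and Krt18 were 31.1% identical.

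At long range same-stem pairs stood apart from other promoter pairs. Between 500 and 1000 kb, 45 of 152 possible same-stem pairs were listed in 1 or more lists (29.6%, 22.9 to 37.3), against 15.5% (15.2 to 15.8) of 47080 other promoter pairs. In all 4 lists there were 5 of 152 (3.29%, 1.41 to 7.47) against 17 of 47080 (0.0361%). All 5 were keratin pairs. Of 20 possible keratin pairs at this range 12 were listed, and without keratins 33 of 132 same-stem pairs were listed (25%, 18.4 to 33.0) with none in all 4 lists. This range was singled out after the values had been seen. Between 20 and 50 kb the order was the reverse, with 116 of 146 same-stem pairs listed (79.5%, 72.2 to 85.2) and 86.0% (84.9 to 87.0) of the others.

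The long keratin loops joined outlying groups of keratin anchors on 2 chromosomes. On chromosome 11, which holds the type I keratins, Krt23 was joined to Krt19 over 656.6 kb (chr11:99488696-99494470 and chr11:100143925-100152377) with 11.8, 11.9, 20 and 3.97 in list order. Krt20, a keratin of gut epithelium, was joined to Krt19 over 709.0 kb with 8.90, 6.23, 3.98 and 3.98, and Krt23 to Krt13 over 628.7 kb with 1.86, 1.91, 6.39 and 1.99. The Krt23 to Krt19 loop had the highest summed value of the 22 loops of 500 kb or more that were in all 4 lists.

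On chromosome 15, which holds the type II keratins and the type I gene Krt18, Krt7, a ductal keratin, was joined to Krt18 over 615.6 kb with 6.08, 3.76, 1.99 and 3.86. Krt80 was joined to Krt18 over 660.4 kb with 3.70, 1.91, 3.99 and 3.95. Keratins of simple and ductal epithelium stood at an end of 4 of the 5 loops, and in 1 of the 5 Krt13, a keratin of stratified epithelium, took that place. The 5 loops reuse the anchors of Krt19, Krt18 and Krt23. Long keratin loops in fewer lists joined Krt7 to Krt8, but also Krt7 to Krt79 and Krt20 to Krt33a. The share of such keratins among the possible long keratin pairs was not counted. In all there were 13 keratin loops on chromosome 11 and 16 on chromosome 15, with 4 of each in all 4 lists. In list order, 23, 19, 13 and 14 of the 29 were listed. The Krt19 anchor was wider (8453 bp) than the median promoter anchor, as were those of Krt18, Krt23, Krt7, Krt80 and Krt20. That of Krt13 was narrower, and the part of width in these loops was not tested.

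**Figure D4:**
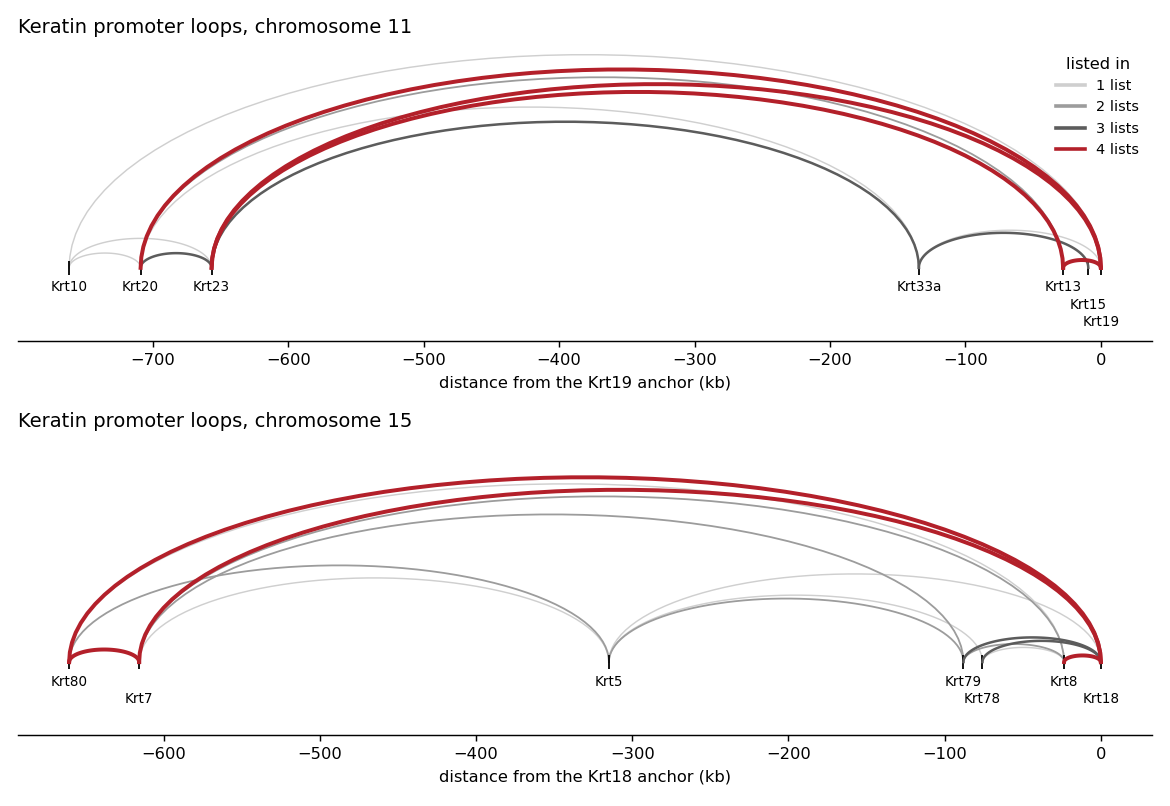
Loops between keratin promoters on chromosomes 11 and 15, drawn as arcs between anchor midpoints, with distance from the Krt19 or Krt18 anchor in kb. Colour and line weight give the number of lists that held the loop, and arc height follows the span. The 8 red arcs, in all 4 lists, include 5 that reach across 615.6 kb or more.

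Other loops of 500 kb or more in all 4 lists included C1qtnf1 with Cbx8, a Polycomb gene, over 609.3 kb, with 1.84, 9.0, 6.39 and 20 in list order. Hrh1, a histamine receptor gene, was joined to Vgll4, a cofactor of TEAD factors, with 5.92, 3.65, 1.98 and 3.82 over 512.4 kb. Setd7, a lysine methyltransferase gene, was joined to Maml3, a coactivator of Notch, with 3.6, 5.93, 1.99 and 1.97 over 541.3 kb. Values just below 2 are shared by long runs of loops in each list and hardly rank them.

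Gene families were also taken by name. Of 53 keratin genes 14 were at promoter anchors, and 29 of the 39 possible keratin pairs were listed, 8 of them in all 4 lists. S100 genes had 9 of 9 possible pairs listed and 4 in all 4 lists, and replication-dependent histone genes 25 of 36, with 18 in FOXA1 liver mets and 6 to 9 in the other lists. Zinc finger (Zfp) genes had 120 of 309 pairs listed, and 3 in all 4 lists. Over all promoters 33.4% of 106170 possible pairs were listed, and since families differ in the spans of their pairs these shares are descriptions.

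Serpins had 9 of 11 pairs listed, solute carriers 16 of 50, chemokines 5 of 6, Hox genes 5 of 6 and ribosomal protein genes 7 of 9. Ubiquitin-conjugating enzymes had 1 of 1 and TNF receptor genes 2 of 4. Of 8 claudin genes and 28 proteasome genes at anchors no pair lay within the range of span.

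Transcription factors of the pancreatic and gut lineage varied in their contacts with other promoters. At a promoter anchor the median was 2, 2, 1 and 1 loops in list order, and the mean 3.16, 2.80, 2.21 and 2.43. The promoter anchor of Foxa1 had 2, 0, 1 and 2 loops in list order, and that of Hnf4g had none in any list. Hnf4a had 7, 1, 4 and 7 over its 3 promoter anchors, and Foxa3 had 6, 3, 6 and 6. Elf3, an epithelial ETS factor, had 8, 5, 6 and 4, with 2 loops in all 4 lists, and Gata5 had 6, 6, 4 and 3, with 1. The counts are small, and the lists differ in length.

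Among others of this set, counts were also uneven. Foxa2 had 1, 1, 1 and 0 loops, and Grhl2 had 1, 0, 0 and 3. Gata6 had 0, 0, 1 and 2, Gata4 had 2, 0, 1 and 0, Klf5 had 1, 0, 2 and 0, Sox9 was listed only in FOXA1 tumor with 1, and Onecut1 only in HNF4G liver mets with 1. Pdx1 had 5, 2, 3 and 5, with 1 in all 4 lists. The strongest loop of the set joined Elf3 to Shisa4 over 117.1 kb, with 1.65 in FOXA1 liver mets, 6.50 in FOXA1 tumor and 6.04 in HNF4G liver mets. Foxa3, which shares its anchor with Sympk, was joined to Fosb, an AP-1 gene, over 283.1 kb with 1.78 in FOXA1 tumor and 5.62 in HNF4G tumor. Gata5 was joined to Adrm1, a proteasome receptor gene, with 1.28, 2.62 and 1.66 in every list but HNF4G liver mets.

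Promoters gathered in networks when loops were chained through shared anchors. All loops combined gave 634 networks over 9843 anchors, and the largest held 205 anchors (2.08%, 1.82 to 2.38). Loops of all 4 lists alone gave 586 networks over 1990 anchors, of which 360 were a lone pair and 83 had 5 or more anchors. The share of connected triples of anchors that closed into a triangle was 28.4%, 26.3%, 23.7% and 25.1% in list order, ranked as were the numbers of loops in the lists.

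The largest network of loops in all 4 lists lay on chromosome 19 (chr19:3684264-6420514). It had 74 anchors, 106 loops and 83 genes, among them the Wnt co-receptor gene Lrp5, the NF-κB subunit gene Rela, the AP-1 gene Fosl1 and the cofilin gene Cfl1, and its hub was the anchor of Ehbp1l1, Fam89b and Sssca1 with 13 loops. The network on chromosome 15 (chr15:75974087-76928777) had 34 anchors and 44 loops, and its hub, an anchor of Plec, had 16. The network on chromosome 10 (chr10:81016463-81607903) had 28 anchors, 41 loops and 25 genes, with Dapk3, a death-associated kinase gene, as its hub. The members named for the chromosome 19 network, other than its hub, were chosen as well-known genes after the network had been seen.

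Chromosome 19 also had the highest share of possible promoter pairs listed in every list, at 23.0%, 20.9%, 16.3% and 17.3% in list order. Chromosome 6 was next in each, at 20.4%, 18.3%, 14.5% and 15.7%. Chromosome 9 was among the lowest, at 10.7%, 9.87%, 7.39% and 8.21%. These shares were not matched for span.

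The anchor of Cirbp, a cold-inducible RNA-binding protein gene, had 38, 33, 27 and 31 promoter to promoter loops in list order. An anchor of Plec had 35, 34, 30 and 30, that of Midn had 32, 30, 24 and 28, and that of Ehbp1l1, Fam89b and Sssca1 had 35, 23, 19 and 27. These 4 anchors had the most loops over the lists, and all were wide, at 8918 to 18465 bp. The Cirbp anchor was joined to Polr2e, a subunit of RNA polymerase II, with values of 20, 5.28, 20 and 8.10, and the Midn anchor to the same start with 20, 3.15, 2.46 and 3.79. Plec was joined to Puf60, a splicing factor gene, with 10.7, 8.83, 8.30 and 5.90. The Ehbp1l1 anchor was joined to Fosl1 with 3.02, 3.26, 1.90 and 1.87.

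The anchors named next had the largest differences in their number of loops between the lines. They were chosen for this difference, so the counts are a description. Even so, the exact interval of the ratio of liver mets to tumor included 1 for Fibp and Ccdc85b (0.915 to 4.23), Pola2 (0.953 to 9.93) and Pip5k1c with Tjp3 (0.260 to 1.07). An interval that excluded 1 at another of these anchors would not show a difference, since the same counts chose the anchor. For FOXA1, Arhgef2, a guanine nucleotide exchange factor gene, had 23 loops in liver mets and 10 in tumor, of which 7 were the same, and its HNF4G counts were 11 and 13. Krt19 had 20 and 7, of which 5 were the same, and 5 and 8 for HNF4G. Loops of Krt19 listed in FOXA1 liver mets and not in FOXA1 tumor led to Gm11568 (9.78), the hair keratin gene Krt33a (6.53) and Krtap4-16 (5.11), and the leading one of Arhgef2 led to Hcn3 (3.64).

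In the other direction for FOXA1, Gpha2 had 4 loops in liver mets and 14 in tumor, and Ppp1r13b, a cofactor of p53, had 0 and 9. The leading loops of Gpha2 in FOXA1 tumor that FOXA1 liver mets did not list went to the anchor of Cdca5, Zfpl1 and Gm28374 (3.97) and to that of Ehbp1l1, Fam89b and Sssca1 (3.63). The 9 loops of Ppp1r13b reached a median of 679.5 kb in FOXA1 tumor, and its leading partners, such as Ahnak2 and Siva1, all had the tied value of 1.91.

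For HNF4G, the anchor of Fibp and Ccdc85b had 23 loops in liver mets and 12 in tumor, with 9 the same, and Pola2, a subunit of DNA polymerase alpha, had 14 and 5, with 2 the same. Cbx8 had 6 and 19, with 4 the same, and the anchor of Pip5k1c and Tjp3 had 14 and 26. The 19 loops of Cbx8 in HNF4G tumor reached 67.9% of the 28 promoter anchors within range, against 21.4% in HNF4G liver mets, 25% in FOXA1 liver mets and 32.1% in FOXA1 tumor. They included Ccdc40 and Tbc1d16 (20), Chmp6 (6.81), Cant1 (3.94) and Rnf213 (3.64), which were not listed in HNF4G liver mets. The loops to Ccdc40 and Tbc1d16, Chmp6 and Cant1 were, however, listed in both FOXA1 lists. Their values were 1.42, 1.87 and 3.65 in FOXA1 liver mets and 2.87, 1.91 and 1.91 in FOXA1 tumor. The loop to Rnf213 was in neither.

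**Figure D5:**
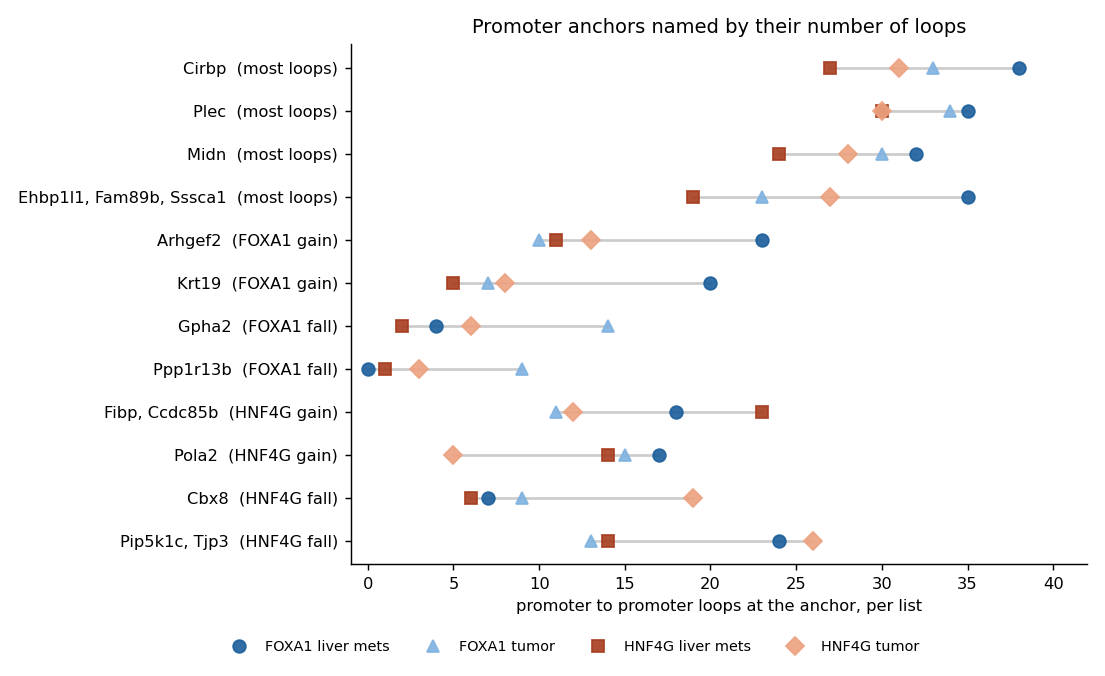
Number of promoter to promoter loops at 12 promoter anchors in each list, 1 marker per list. Most loops names the 4 anchors with the highest sums, and gain and fall name the anchors with the largest difference, liver mets minus tumor, for the factor given. Krt19 had 20 loops in FOXA1 liver mets and 5 to 8 in the other lists, and Cbx8 had 19 in HNF4G tumor and 6 to 9 in the others.

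Features that the selection of loops did not use were compared with all possible promoter pairs at the same spans. Genes on the same strand made up 50.8% (50.2 to 51.4) of loops with 1 strand per anchor, against 51.1% of pairs, and divergent genes 25.3% (24.7 to 25.8) against 24.8%. Convergent genes made up 23.9% against 24.0%, and 19.9% (17.6 to 22.3) of loops in all 4 lists against 21.9%. The shares by strand thus lay near those of the possible pairs. A CTCF motif in both anchors was found in 125 of the 35480 loops (0.352%, 0.296 to 0.420) against 0.244% of pairs, and in 14 of the 1647 loops in all 4 lists (0.850%, 0.507 to 1.42) against 0.312%. The pairs were matched for span and not for anchor width, and a wider anchor has more room for a motif. Among loops with motifs of 1 direction at each anchor, 26 of 118 had them facing each other (22.0%, 15.5 to 30.3), against 24.9% of pairs. The 9 features compared were not adjusted for their number.

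Anchors of loops in all 4 lists were wider than promoter anchors in general, with a median of 3320 against 2516 bp, and held a CTCF motif in 6.63% against 3.59%. These CTCF shares are per anchor and not adjusted for width, with 132 such anchors in 7864 kb and 376 in 30710 kb. Their forkhead motif density was 0.131 per kb against 0.141 in all promoter anchors and 0.202 in other anchors, and their AP-1 motif density was 0.217 against 0.187 and 0.359. ETS motif density was 0.154, 0.166 and 0.0522 per kb, higher in both sets of promoter anchors than in other anchors. In the 250 bases before the start, a GC box was found for 62.1% of 7738 genes in promoter to promoter loops and 44.3% of 16522 genes with an entry, and a TATA box for 6.33% against 11.9%. A forkhead motif was found for 2.44% against 2.64% and an HNF4 motif for 3.27% against 3.64%. An ETS motif was found for 13.5% against 9.45%, and an AP-1 motif for 3.31% against 3.98%. The shares for genes in loops were thus higher for GC boxes and ETS motifs and lower for TATA boxes and AP-1 motifs, and those for the motifs of the precipitated factors lay closer to the shares of all genes. Genes at anchors without such loops were not compared.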

How the data were processed

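Hi-ChIP libraries of 8 samples were processed by the authors with HiC-Pro (version 3.1.0 in the submitters' processing notes, mm10, DpnII, duplicates removed) and hichipper, giving 1 loop list per group. The source of the anchors, the minimum of paired reads and the way replicates were joined were not given in the sources used here. Each list deposited by the authors holds anchor pairs, a −log10 value, read as such from its ties and its top of 20, and a display score, which was not used.

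Anchors were matched to protein-coding starts of GENCODE M21 on GRCm38. Groups came from sample titles. Ratios had exact intervals, shares Wilson intervals and odds ratios Mantel-Haenszel estimates over 5 span ranges with Robins-Breslow-Greenland intervals, all at 95%. Depth per sample is unknown, and with 1 list per group no between-group test was run. Related genes were found by symbol, or by blastp (BLAST 2.17.0, E of 1e-10 or less, 30% identity over 50% of the shorter protein) on translated coding sequences. Networks used networkx 3.6.1, statistics scipy 1.17.1.

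Loops were named by rule, namely the highest minimum value among loops in all 4 lists, the highest sums per combination of lists and per stem, and the anchors with the most loops or the largest difference. Members and lists were chosen with earlier results of these data known. The intervals of ratios, shares and odds ratios were tested on simulated pairs drawn independently, without shared anchors. The matching of starts and the counting of pairs were tested on a small made-up set. Networks, relatedness, the naming of loops and motif counts were not tested in this way. Alternatives were the distance to a start, starts per gene, value, span, chromosomes, list size, anchor overlap, the definition of relatedness, and strata of width or GC. Promoter sequences came from RefSeq. Some loops and genes that the naming rule chose are not reported here.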

Additional observations from a re-analysis of the deposited data

Results flagged for a closer look

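The ratio of liver mets to tumor lay on opposite sides of 1 for the 2 factors. The number of promoter to promoter loops in liver mets over tumor was 1.13 for FOXA1 and 0.909 for HNF4G. The same was seen between 100 and 200 kb (1.09 and 0.897), between 200 and 500 kb (1.17 and 0.850) and between 500 and 1000 kb (1.28 and 0.801). Between 50 and 100 kb the HNF4G interval included 1, and between 20 and 50 kb the intervals of both factors did. Loops with no promoter anchor shifted with span in the same directions. The ratio of the FOXA1 ratio to the HNF4G ratio was 1.24 (95% interval 1.2 to 1.28, counting error only). With 1 list per group, this difference was not tested. When equal numbers of highest-value loops were taken from the lists of each factor both ratios lay below 1, at 0.948 for FOXA1. Such ratios compare shares of the loops rather than their numbers.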

How the results depend on the processing

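Of 95 alternatives 61 stayed within the 95% interval of the reported value, 31 moved outside it and 3 turned a ratio to the other side of 1. With lists cut to equal length by value, the FOXA1 ratio of liver mets to tumor turned to 0.948, the ratio of FOXA1 to HNF4G to 0.858 in tumor and to 0.884 in liver mets, and the share of FOXA1 loops found in both lines was 32.0%. With a value of 2 or more, which also selects on span, the count ratios between lines were 1.21 for FOXA1 and 0.798 for HNF4G, and that of FOXA1 to HNF4G was 1.01 in tumor (0.938 to 1.09, so no longer apart from 1) and 1.53 in liver mets. The odds of a promoter pair within spans were then 0.822 for FOXA1 and 0.729 for HNF4G between lines, and 0.609 in tumor and 0.684 in liver mets between factors. The shares found in both lines were 21.7% and 18.9%, and the largest network held 3.28% of anchors. With spans of 50 kb to 1 Mb those shares were 33.7% and 28.5%, the HNF4G ratio 0.883, the liver mets ratio of the factors 1.5 and the same-stem share 0.884%. With the start inside the anchor the tumor ratio of the factors was 1.12. With a start within 5 kb it was 1.19, the liver mets ratio 1.46, the HNF4G shared loops 33.1% and the same-stem share 1.26%, which was 1.25% with 1 start per gene and 0.620% for proteins of 50% identity or more. With anchors widened by 5 kb, 53.2% of FOXA1 and 48.3% of HNF4G loops were found in both lines. In loops of all 4 lists the largest network held 3.72% of anchors. With strata of span and GC content the odds were 0.947 for FOXA1, 0.963 for HNF4G, 0.946 in tumor and 0.928 in liver mets. A cut to equal length turns a count ratio into a ratio of shares. The cause of the other shifts was not tested. The protein alignment at 30% identity, the strata of width, GC content and DpnII sites, and the removal of keratins were chosen after seeing the data. Leaving out a replicate was not run, since each group had 1 list. No paired analysis was possible because each group had 1 list that joined its replicates. Depth was not given in the lists, so a loop missing from a list may reflect fewer reads.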
